A study of Bos indicus x Bos taurus with 17 samples.

Results

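The genes described here are 9 paternally expressed imprinted genes, DLK1, PEG3, PLAGL1, PEG10, SGCE, MEST, NNAT, NAP1L5 and SNRPN. They were taken by symbol from the gene-level RNA-seq tables of fetal bovine liver and skeletal muscle, and all 9 were found among the 21048 genes listed. The fetuses were F1 crosses of Bos indicus (Nelore) and Bos taurus (Holstein), collected at day 105 of gestation. Control-AI fetuses (n = 2, numbers 2 and 4) were conceived by artificial insemination. ART-Normal fetuses (n = 4, numbers 1 to 4) were conceived by assisted reproduction and were in the normal weight range, below the limit that the study set for large offspring syndrome. Each fetus gave 1 liver and 1 muscle library, so 12 libraries were compared. The libraries were made from polyadenylated RNA with a strand-specific kit. The sources used here give no fetal sex for these libraries, and fetuses with overgrowth were not analysed here.

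Genomic imprinting silences 1 parental copy of a gene through DNA methylation set in the germ line, so that a paternally expressed gene is read from the copy inherited from the father. Many such genes promote or regulate fetal growth, and several lie in clusters that share a control region with maternally expressed neighbours. Disturbed imprinting is a known feature of large offspring syndrome. The counts used here were not split by parental allele, so they give the total RNA of a gene and not its imprint. They also come from bulk tissue, in which fewer cells of a type and less RNA per cell cannot be told apart.

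The 9 genes lie at 8 places in the genome (assembly ARS-UCD1.2). DLK1, a membrane protein related to Notch ligands that holds progenitor cells in an undifferentiated state, lies at chr21:65626346-65634498 on the plus strand, with BEGAIN and RTL1 as its nearest listed neighbours. PEG3 (chr18:64099192-64122748, minus strand) and PLAGL1 (chr9:81363243-81459984, minus strand) encode zinc finger proteins, of which PLAGL1 is a transcription factor that restrains the cell cycle. PEG10, a gene derived from a retrotransposon and needed for the placenta in mice, and SGCE, which encodes epsilon-sarcoglycan, form a divergent pair. PEG10 (chr4:12063954-12076659, plus strand) begins 186 bp from the start of SGCE (chr4:11992407-12063767, minus strand).

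MEST, a hydrolase-like protein named for its mesodermal expression, lies at chr4:94245517-94263783 on the plus strand. Its 3' end is 221 bp from the 3' end of COPG2 on the minus strand. NNAT encodes neuronatin, a small membrane protein linked to calcium handling. It lies at chr13:66465154-66467548 on the plus strand, inside the span of BLCAP on the minus strand. NAP1L5 (chr6:36082759-36084691, plus strand), a retrogene related to nucleosome assembly proteins, lies in the same way inside HERC3. ZC2HC1B on the plus strand shares 7377 bp with PLAGL1, which is 7.63% of the PLAGL1 span. SNRPN, which encodes a spliceosomal protein, lies at chr21:1937668-1961040 on the plus strand. SNURF shares 74.0% of the SNRPN span on the same strand and was listed at 0 counts in every library, so the SNRPN values are uncertain in what they count.

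Total counts ran from 18454088 to 43339598 in liver and from 12433300 to 23578362 in muscle. Levels are given in CPM, a gene's count relative to the total of its library, after scaling by trimmed mean of M-values (TMM) over the 12 libraries. All 8 hepatocyte markers were higher in liver and all 8 skeletal muscle markers were higher in muscle. In muscle 3 of the hepatocyte markers passed a filter of 5 CPM, and in liver 0 of the skeletal muscle markers did. For the others the filter set the direction. The tissue labels held in the levels, with summed skeletal muscle markers at 6.80 to 31.2 CPM in liver and 15578 to 21518 CPM in muscle. Both libraries of Control-AI 2 stood apart. In liver its summed hepatocyte markers were 340040 CPM against 29930 to 57795 CPM in the other 5 liver libraries, and its summed erythroid markers were 24573 CPM against 5598 to 6466 CPM. In muscle its summed hepatocyte markers were 368 CPM against 25.1 to 63.6 CPM in the other 5 libraries, and its summed erythroid markers 93.0 CPM against 201 to 647 CPM. Results that rest on this fetus are therefore given with and without it.

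The 9 genes took up 1.63% to 1.81% of all counts in liver and 0.859% to 1.09% in muscle. IGF2, the paternally expressed fetal growth factor, took up 0.519% to 0.773% in liver and 1.03% to 1.27% in muscle.

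**Figure D1:**
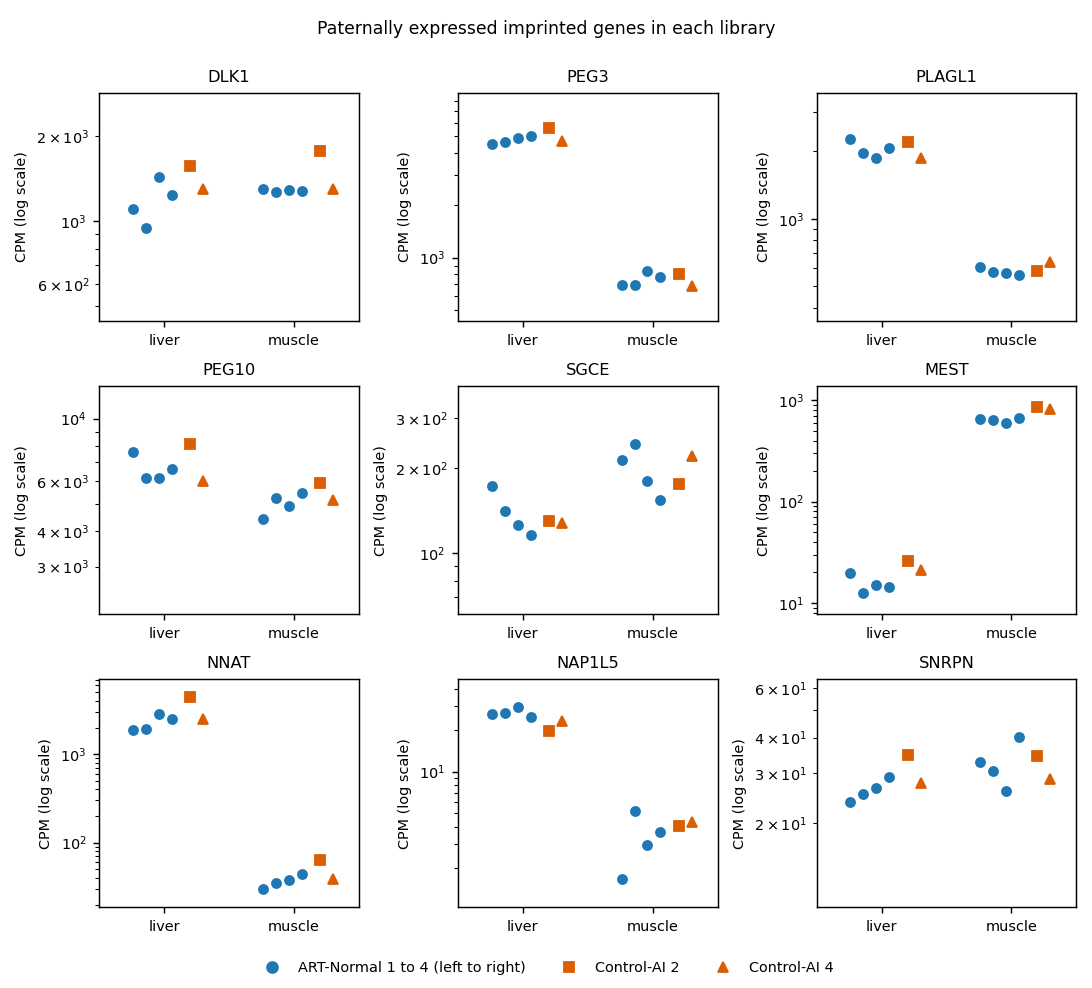
Level of each paternally expressed imprinted gene in each of the 12 libraries, in CPM on a log axis. Points are single libraries, with ART-Normal fetuses as circles, Control-AI 2 as a square and Control-AI 4 as a triangle. NNAT, NAP1L5, PEG3 and PLAGL1 sit higher in liver in all 6 fetuses, MEST sits higher in muscle, and the conception groups are apart for MEST in both tissues and for NAP1L5 in liver.

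The tissue comparison asked how the 9 genes differed between liver and muscle of the same fetuses, in a fit with no term for the fetus. Of the 9 genes, 5 were higher in liver, 2 were higher in muscle and 2 did not pass the test (edgeR quasi-likelihood test, Benjamini-Hochberg adjusted p of 0.05 or lower). Over all 12923 genes tested, 81.3% passed, with 40.6% higher in liver and 40.7% higher in muscle, so a count of 7 of 9 is near the share of all genes. Among the 7, NAP1L5 passed the filter of 5 CPM through liver alone, which set its direction. Sizes over the 7 ranged from a 63.6-fold difference for NNAT to a 1.31-fold difference for PEG10. An absolute log2 fold change of at least 1 was reached by 5 of the 9 genes and by 47.0% of all genes, and one of at least 5 by NNAT and MEST and by 8.89% of all genes.

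NNAT was the most liver-weighted of the 9. The livers of ART-Normal 1 to 4 had 1863, 1910, 2818 and 2533 CPM, while those of Control-AI 2 and 4 had 4409 and 2474 CPM. The muscles of ART-Normal 1 to 4 had 29.8, 34.8, 37.5 and 44.6 CPM, while those of Control-AI 2 and 4 had 64.5 and 38.8 CPM. Every liver library was far above every muscle library, with a log2 fold change of 5.99 (SE 0.24, adjusted p = 1.7e-11 by edgeR). Within single fetuses the log2 ratio lay between 5.78 and 6.23.

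MEST had the opposite pattern. Its liver level was 19.9, 12.4, 15.1 and 14.2 CPM for ART-Normal 1 to 4, whereas Control-AI 2 and 4 had 25.9 and 21.4 CPM, from 361 to 557 counts per library. Its muscle level was 654, 633, 603 and 668 CPM for ART-Normal 1 to 4, whereas Control-AI 2 and 4 had 864 and 825 CPM. The muscle level was 39.6-fold above the liver level, with a log2 fold change of -5.31 (SE 0.14, adjusted p = 3.8e-13 by edgeR), and the ratio within a fetus ran from -5.67 to -5.04 on the log2 scale.

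Both zinc finger genes were higher in liver. PEG3 ranged from 4529 to 5559 CPM in liver and from 689 to 841 CPM in muscle, a log2 fold change of 2.71 (SE 0.14, adjusted p = 3.8e-10 by edgeR). PLAGL1 ranged from 1860 to 2281 CPM in liver and from 558 to 641 CPM in muscle, a log2 fold change of 1.79 (SE 0.11, adjusted p = 2.6e-09). The tissues did not overlap for either gene, and PLAGL1 was among the steadiest of the 9 within a tissue, with a coefficient of variation over the 6 fetuses of 8.45% in liver and 5.15% in muscle. PLAGL2, a paralog of PLAGL1 outside the imprinted list, was also higher in liver, with a log2 fold change of 1.39 (SE 0.09, adjusted p = 2.9e-09 by edgeR), whereas the paralog PLAG1 was higher in muscle, with a log2 fold change of -2.40 (SE 0.11, adjusted p = 7.0e-11). Both were named after their values were seen.

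NAP1L5 was low in muscle. The liver values were 26.3, 26.5, 29.2 and 24.8 CPM for ART-Normal 1 to 4 and, for Control-AI 2 and 4, 19.7 and 23.2 CPM. The muscle values were 1.66, 5.20, 2.96 and 3.66 CPM for ART-Normal 1 to 4 and, for Control-AI 2 and 4, 4.05 and 4.31 CPM, which rest on 42 to 106 counts per library. The tissues were apart in all 6 fetuses, with a log2 fold change of 2.79 (SE 0.22, adjusted p = 3.6e-08 by edgeR). NAP1L5 passed the filter of 5 CPM through liver alone, which set its direction. Its host gene HERC3 was also higher in liver, by 1.14 on the log2 scale (SE 0.14, adjusted p = 4.0e-06). The host gene of NNAT, BLCAP, did not pass the test (log2 fold change 1.28, SE 0.71, adjusted p = 0.109 by edgeR), and without Control-AI 2 it passed with a smaller value (0.31, SE 0.10, adjusted p = 0.00858).

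The divergent neighbours PEG10 and SGCE were weighted towards different tissues. PEG10 ranged from 6004 to 8146 CPM in liver and from 4434 to 5901 CPM in muscle, and was higher in liver in 6 of 6 fetuses by 0.22 to 0.78 on the log2 scale. SGCE ranged from 116 to 172 CPM in liver and from 154 to 243 CPM in muscle, and was higher in muscle in 6 of 6 fetuses. The log2 fold change was -0.55 for SGCE (SE 0.13, adjusted p = 0.00109 by edgeR) and 0.39 for PEG10 (SE 0.17, adjusted p = 0.0485).

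The PEG10 call was marginal. With the fetus as a block, which uses the pairing of the tissues within an animal, its adjusted p by edgeR was 0.0519. It was also lost when any 1 of the ART-Normal fetuses was left out, with adjusted p values from 0.0897 to 0.151 after edgeR refits. Scaling by library size alone gave a log2 fold change of 0.24, which did not pass.

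DLK1 and SNRPN did not differ beyond their spread between tissues. DLK1 in liver was at 1105, 946, 1435 and 1239 CPM for ART-Normal 1 to 4, with Control-AI 2 and 4 at 1568 and 1295 CPM. DLK1 in muscle was at 1300, 1272, 1292 and 1278 CPM for ART-Normal 1 to 4, with Control-AI 2 and 4 at 1774 and 1298 CPM. The 5 muscle libraries other than Control-AI 2 were within a narrow band, whereas the liver libraries were spread. The log2 fold change was -0.12 for DLK1 (SE 0.14, adjusted p = 0.435 by edgeR) and -0.21 for SNRPN (SE 0.12, adjusted p = 0.123). SNRPN ranged from 23.7 to 34.7 CPM in liver and from 25.9 to 40.2 CPM in muscle. With library size alone SNRPN was higher in muscle, with a log2 fold change of -0.36 (adjusted p = 0.0163 by edgeR), where the median of all genes was itself -0.13.

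**Figure D2:**
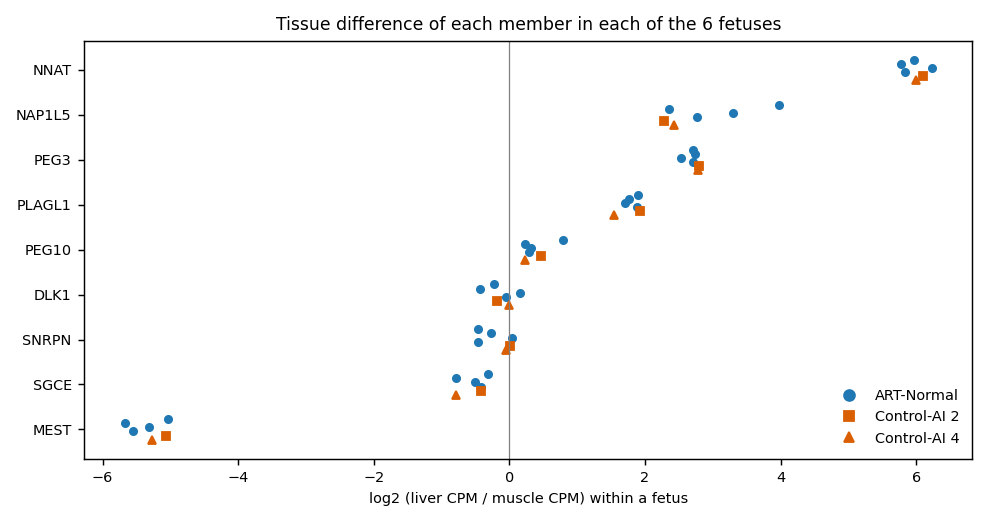
Log2 ratio of liver CPM to muscle CPM within each of the 6 fetuses for the 9 genes, ordered by mean ratio. Each point is 1 fetus. NNAT lies between 5.78 and 6.23 and MEST between -5.67 and -5.04, while DLK1 and SNRPN scatter around 0.

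Other genes of the same kind were read beside these. Of 17 further paternally expressed imprinted genes listed, 11 were found and 6 passed the filter on low values. All 6 were lower in liver than in muscle, against 40.7% of all genes tested. Of the 6, 5 passed the filter in liver as well. RTL1 passed it through muscle alone, which set its direction. The largest differences were those of RTL1, the retrotransposon-derived neighbour of DLK1 (log2 fold change -4.77), INPP5F (-1.43), NDN (-1.16), the neighbour of SNRPN, and L3MBTL1 (-0.79). IGF2, also 1 of the 6, had a log2 fold change of -0.63 (SE 0.18, adjusted p = 0.00468 by edgeR). The median over these 6 genes was -0.98 on the log2 scale, against 0.39 over the 9 genes and 0.01 over all genes tested.

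RTL1 and DLK1 are neighbours on chromosome 21 with different tissue values. RTL1 was at 1.16 to 4.95 CPM in liver and at 43.7 to 80.9 CPM in muscle, whereas the ranges of DLK1 overlapped. Among 12 tested genes that lie beside the 9 genes in their clusters, 2 were higher in liver and 7 in muscle (4 and 7 without Control-AI 2). The largest differences were those of COPG2 beside MEST (log2 fold change -2.78) and of ASB4, CASD1 and PPP1R9A around PEG10 and SGCE (-2.76, -2.38 and -2.12). Without Control-AI 2 COPG2 was at -2.23, behind ASB4 at -2.82 and CASD1 at -2.35, with PPP1R9A at -2.22. ASB4, at 0.739 to 3.93 CPM in liver, passed the filter through muscle alone, which set its direction. Of 10 tested paralogs outside the imprinted list, 2 were higher in liver and 7 in muscle. Among these SGCA and SGCD gave log2 fold changes of -10.4 and -4.37, against -0.55 for SGCE, and DLK2 gave -6.61 against -0.12 for DLK1. SGCA and DLK2 passed the filter through muscle alone, which set their direction. In liver they were at 0 to 0.406 and 0 to 0.370 CPM, so the sizes of their fold changes rest on values near 0.

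The conception comparison asked whether the 9 genes differed between ART-Normal and Control-AI fetuses. In liver, 0 of 9 passed the edgeR quasi-likelihood test and 1, MEST, had an unadjusted p under 0.05. The likelihood ratio test and DESeq2 also called 0 of 9. Over all 11304 genes tested in liver, 0.0% passed and 8.39% had an unadjusted p under 0.05. In muscle, NAP1L5 did not reach the filter of 5 CPM, and 0 of the other 8 passed by edgeR, the likelihood ratio test or DESeq2. MEST and NNAT had an unadjusted p under 0.05 in muscle, against 9.19% of the 11695 genes tested. The adjusted test called 0.00855% of muscle genes, which is 1 gene, ANKRD1, named after its value was seen and not one of the 9.

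MEST was lower in every ART-Normal library than in either Control-AI library, in both tissues. In liver the ART-Normal mean was 15.4 ± 3.22 CPM (SD, n = 4) against 21.4 and 25.9 CPM in the Control-AI fetuses. In muscle the ART-Normal mean was 640 ± 28.3 CPM (SD, n = 4) against 825 and 864 CPM. The gap in muscle was wider than the whole range of the ART-Normal libraries. The log2 fold change was -0.63 in liver (SE 0.21, unadjusted p = 0.0152, adjusted p = 0.540 by edgeR) and -0.40 in muscle (SE 0.14, unadjusted p = 0.0155, adjusted p = 0.417).

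Neither difference of MEST passed the correction over all genes. Without Control-AI 2 the log2 fold change was -0.46 in liver and -0.37 in muscle, with adjusted p values of 0.999 and 0.968 by edgeR. All ART-Normal libraries were below both Control-AI libraries for 9.51% of genes in liver, for 7.72% in muscle, and in both tissues for 117 of 10076 genes, or 1.16%, of which MEST was 1. COPG2, beside MEST on the other strand, had log2 fold changes of -0.57 in liver and -2.20 in muscle, which became -0.09 and 0.04 without Control-AI 2.

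Cell type markers followed the same split of the libraries only in part. Of the hepatocyte markers in liver, ALB, AFP, SERPINA1 and AHSG were lower in every ART-Normal library than in either Control-AI library. APOA1, APOA2, TTR and FGB overlapped between the groups. The summed endothelial and macrophage markers overlapped between the groups in both tissues. The summed erythroid markers in liver were 5598 to 6278 CPM in the ART-Normal libraries, below Control-AI 2 and 4 at 24573 and 6466 CPM. Among these markers only HBG was lower in every ART-Normal liver than in either Control-AI liver. The log2 fold changes of the 7 tested in liver ran from -2.92 to 0.46. In muscle the summed erythroid markers overlapped between the groups. The summed hepatocyte markers in liver were 29930 to 49942 CPM in the ART-Normal libraries, below Control-AI 2 and 4 at 340040 and 57795 CPM. All 8 hepatocyte markers had negative log2 fold changes in liver, from -3.91 to -0.18, and 5 had an unadjusted p under 0.05, though none passed the adjusted edgeR test. Without Control-AI 2 they ran from -0.78 to -0.17, still all 8 negative. In muscle 3 hepatocyte markers were tested and 2 had an unadjusted p under 0.05, AHSG (log2 fold change -3.01) and ALB (-2.98), which became 0.35 and -0.03 without Control-AI 2. In the same muscles the summed connective tissue markers were 21346 to 25123 CPM in the ART-Normal libraries, below Control-AI 2 and 4 at 26615 and 27768 CPM. All 8 of these markers had negative log2 fold changes, from -0.53 to -0.11 (-0.56 to -0.15 without Control-AI 2), and 0 passed the adjusted edgeR test with 1 at an unadjusted p under 0.05. The connective tissue markers did not follow this split in liver. Their sum was lowest in the liver of Control-AI 4 (590 CPM) and highest in that of Control-AI 2 (1222 CPM). The ART-Normal livers lay between them, at 837 to 1056 CPM. Log2 fold changes of the 8 markers in liver ran from -0.06 to 0.37. Without Control-AI 2 they ran from 0.17 to 1.73, opposite in sign to muscle, and rest on the low liver of Control-AI 4 as the only control. The part of these markers in the MEST, NNAT and DLK1 values was not tested. The summed skeletal muscle markers overlapped between groups, with ART-Normal at 15578 to 21518 CPM and Control-AI at 18966 and 20456 CPM.

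NNAT was lower on average in ART-Normal fetuses, but the groups overlapped in both tissues. Its level in Control-AI 4, at 2474 CPM in liver and 38.8 CPM in muscle, lay inside the ART-Normal range, and only Control-AI 2 lay above it. The log2 fold change was -0.60 in liver (SE 0.28, adjusted p = 0.589 by edgeR) and -0.49 in muscle (SE 0.22, adjusted p = 0.535). Without Control-AI 2 these became -0.10 and -0.09. With Control-AI 2 as the only control they became -0.97 (adjusted p = 0.0386) and -0.81 (adjusted p = 0.0145), in fits that assume the lone control varies like the ART-Normal libraries.

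On TMM-scaled CPM, DLK1 was likewise highest in Control-AI 2 in both tissues. Its log2 fold change was -0.29 in liver (SE 0.21, adjusted p = 0.644 by edgeR) and -0.26 in muscle (SE 0.17, adjusted p = 0.692). Without Control-AI 2 the values were -0.12 and -0.02. Scaling by library size alone gave -0.07 for DLK1 in liver, where the median of all genes was itself 0.21. Control-AI 2 was the highest of the 6 libraries for 6 of the 9 genes in liver and for 4 of the 8 tested genes in muscle. The share of all genes that were highest in this fetus was not computed, so these counts are not read as a trait of the 9 genes. They also rest on TMM scaling, whose factor was 0.755 for the liver of Control-AI 2 and 0.961 to 1.04 for the other livers.

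NAP1L5 was the 1 gene of the 9 that was higher in every ART-Normal liver than in either Control-AI liver. The ART-Normal mean was 26.7 ± 1.83 CPM (SD, n = 4) against 19.7 and 23.2 CPM. The log2 fold change was 0.31 (SE 0.16, adjusted p = 0.589 by edgeR), and 0.22 without Control-AI 2. All ART-Normal libraries were above both Control-AI libraries for 9.02% of liver genes. With MEST, the groups did not overlap for 2 of 9 genes in liver, against 18.5% of all genes tested, and for 1 of 8 in muscle, against 16.0%. Of the 8, 0 were higher in every ART-Normal muscle, against 8.29% of all genes. In muscle NAP1L5 overlapped between groups, and a fit without the filter gave a log2 fold change of -0.30 (SE 0.41, adjusted p = 0.875 by edgeR).

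The remaining genes overlapped between the groups in both tissues. In liver their log2 fold changes were -0.12 for PEG3 (SE 0.20), -0.10 for PEG10 (SE 0.23), 0.10 for SGCE (SE 0.16), -0.0049 for PLAGL1 (SE 0.18) and -0.26 for SNRPN (SE 0.17). In muscle they ran from -0.14 for PEG10 (SE 0.16) to 0.04 for SNRPN (SE 0.19), with PLAGL1 at -0.07 (SE 0.14). None of these genes had an unadjusted p under 0.05 in either tissue.

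IGF2 had log2 fold changes of -0.09 in liver (SE 0.22) and -0.22 in muscle (SE 0.15, adjusted p = 0.716 by edgeR), and in muscle its ART-Normal libraries (9602 to 10461 CPM) were all below its Control-AI libraries (11537 and 11818 CPM). The other tested paternally expressed genes gave 0 calls by edgeR in liver (5 genes) and in muscle (6 genes), with 0 at an unadjusted p under 0.05 in both tissues.

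**Figure D3:**
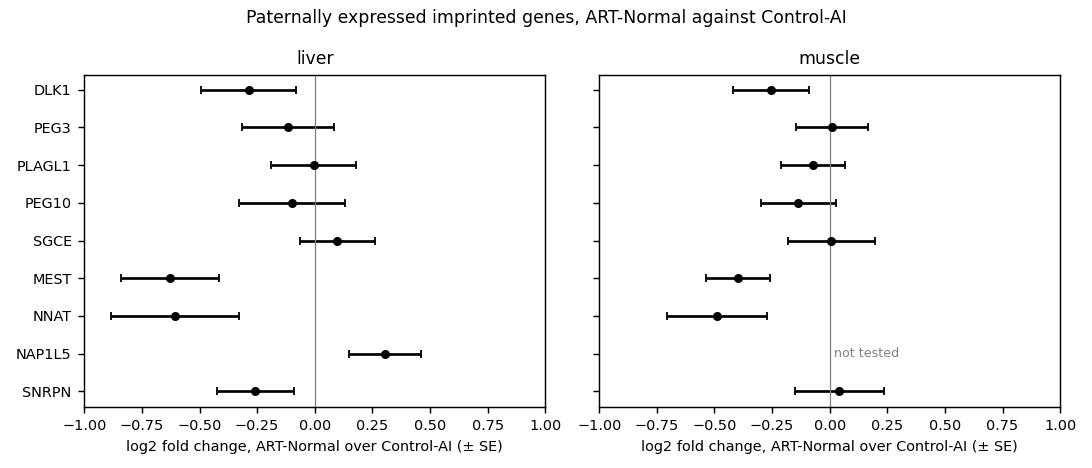
Fitted log2 difference between ART-Normal and Control-AI fetuses (positive where ART-Normal is higher) for the 9 genes in liver and in muscle, with bars of 1 standard error from the edgeR fit. MEST (-0.63 and -0.40) and NNAT (-0.60 and -0.49) lie furthest below 0, and NAP1L5 was not tested in muscle.

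Whether the conception difference itself differed between the tissues was tested with an interaction term. Of the 9 genes, 0 passed by the edgeR quasi-likelihood test, 0 had an unadjusted p under 0.05, and 0 passed by the likelihood ratio test or DESeq2, against 0.0% of all 12923 genes by the quasi-likelihood test. The differences of the log2 fold changes (liver minus muscle) ranged from -0.28 for SNRPN to 0.64 for NAP1L5. The value was -0.22 for MEST (SE 0.25, adjusted p = 0.959) and -0.10 for NNAT (SE 0.42, adjusted p = 0.997).

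Genes on the strand opposite to these genes also set Control-AI 2 apart. BLCAP, which contains NNAT, was at 4612 CPM in the liver of Control-AI 2 and at 174 to 204 CPM in the other 5 livers. ZC2HC1B, at the 3' end of PLAGL1, was at 1336 CPM in that liver against 10.4 to 16.6 CPM in the others. In muscle ZC2HC1B was at 341 CPM in Control-AI 2 against 8.97 to 14.3 CPM in the others, and COPG2 at 705 CPM against 68.2 to 103 CPM.

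The share of the paternally expressed gene in the counts of its pair was lower in Control-AI 2 at 5 of 8 combinations of pair and tissue. NNAT made up 48.9% of the summed NNAT and BLCAP counts in the liver of Control-AI 2 and 90.1% to 93.8% in the other 5 livers. PLAGL1 made up 62.2% of the summed PLAGL1 and ZC2HC1B counts in that liver against 99.1% to 99.5%, while its own level of 2195 CPM lay within the range of the others, 1860 to 2281 CPM. In muscle PLAGL1 made up 63.0% in Control-AI 2 against 97.6% to 98.5%, and MEST made up 55.1% of the summed MEST and COPG2 counts against 85.5% to 90.8%. HERC3 in liver was at 55.1 CPM in Control-AI 2 against 35.6 to 40.2 CPM, and NAP1L5 made up 26.4% of the pair there against 38.8% to 45.1%. In the other 3 combinations, NNAT and BLCAP in muscle (20.04% against 18.2% to 23.0%), MEST and COPG2 in liver (43.0% against 39.2% to 52.2%) and NAP1L5 and HERC3 in muscle (18.8% against 9.84% to 23.7%), Control-AI 2 lay within the range of the other fetuses.

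The strand setting used when the counts were made is not given in the sources used here, and whether reads were assigned to the other strand in the Control-AI 2 libraries was not tested. The BLCAP difference in the conception comparison (log2 fold change -3.72 in liver) was -0.05 without Control-AI 2.

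**Figure D4:**
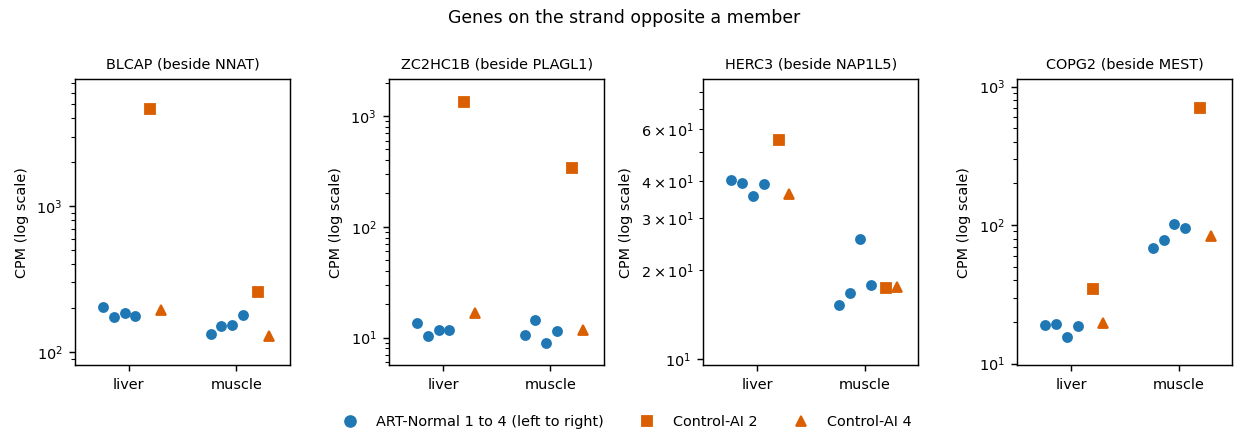
Level of the 4 genes that lie on the opposite strand inside, around or next to a paternally expressed gene, in CPM on a log axis, by library. Control-AI 2 (square) is the highest library in every panel and tissue except HERC3 in muscle, with liver BLCAP at 4612 CPM against 174 to 204 CPM.

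The last comparison asked whether a fetus with a high level in liver also had a high level in muscle. The relation was computed over the 6 fetuses for the 8 genes that passed the filter in both tissues. NNAT gave Pearson's r of 0.94 (exact permutation p = 0.0111, two-sided, adjusted p = 0.0889 over the 8 genes) and Spearman's rho of 0.83 (exact permutation p = 0.0583, adjusted p = 0.387). Without ART-Normal 1 and Control-AI 2, the fetuses farthest from the liver median, r was 0.53, and without Control-AI 2 alone it was 0.75, so its size rests in part on those fetuses. For MEST the conception groups formed separate clusters in muscle, each with fewer than 6 fetuses, so no pooled coefficient is given. MEST was counted among the 8 genes of the adjustment and did not pass it. Of the other 6 genes, 0 passed by the exact permutation test, with 0 at an unadjusted p under 0.05.

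**Figure D5:**
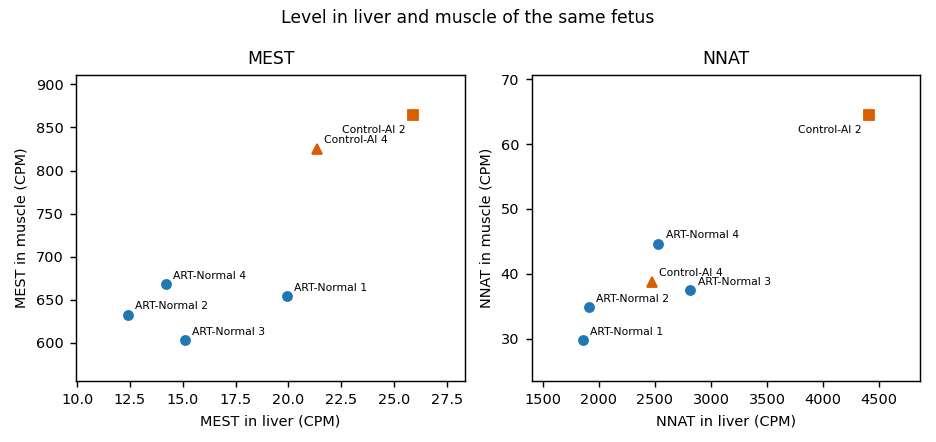
Level of MEST and NNAT in liver (horizontal axis, CPM) and in muscle (vertical axis, CPM) of the same fetus, 1 point per fetus. For MEST both Control-AI fetuses lie above and to the right of the 4 ART-Normal fetuses. For NNAT only Control-AI 2, at 4409 and 64.5 CPM, lies apart.

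The correlations among these genes across libraries were lower once Control-AI 2 was left out. With each tissue centred on its mean, the 28 pairs of 8 genes had a median Pearson's r of 0.45 over the 12 libraries, and of 0.04 over the 10 libraries without that fetus. The pairs share libraries, depth and scaling, so these values are a description. Among all 10076 genes that passed the filter in both tissues, the gene most like MEST was ANXA2 (r = 0.93, and 0.93 without Control-AI 2), and that most like PLAGL1 was AKAP12 (0.93 and 0.94), with PDGFRA next (0.92 and 0.92). For SGCE it was CDC40 (0.95 and 0.98), for PEG3 CPTP (0.96 and 0.95) and for SNRPN ATF4 (0.90 and 0.90). For NNAT it was LOC616200 (0.98 and 0.94), for DLK1 SARS2 (0.95 and 0.87) and for PEG10 PRELP (0.88 and 0.73), the last of which fell most when Control-AI 2 was left out.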

How the data were processed

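The authors sequenced poly(A) RNA and, per the labels, used FastQC 0.11.7, HISAT2 2.1.0 and featureCounts on ARS-UCD1.2; the strand setting is not given in the sources used here. The deposited values are raw read counts per gene, and 14 count columns matching no label in use were left out. The labels also list 5 kidney samples, not analysed here. Gene names were read after removing a prefix of 5 characters. The members and gene lists were chosen with earlier results of these data known. The filter kept genes whose CPM was 5 or more throughout at least 1 group, and they were tested with edgeR 4.0.16 (R 4.3.3; TMM, quasi-likelihood test, Benjamini-Hochberg adjustment), over all genes of a table. DESeq2 1.42.0 and edgeR's likelihood ratio test, other scalings, no filter, fetus or replicate blocks and single fetuses left out were alternatives; listed genes other than the 9 were read without Control-AI 2 after the data were seen. The fits were tested on simulated data. Each fetus is 1 replicate, so n is 4 and 2, and the conception p-values within a tissue measure the spread between these animals. The tissue and interaction fits had no term for the fetus and treated the 12 libraries as independent. Their residual degrees of freedom were 9 and 8, so their p-values do not measure the spread between animals alone.

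All 9 members were named. From other lists, counts were given, with up to 4 genes of the largest absolute log2 fold change among those past the threshold (IGF2, PLAGL2 and PLAG1 were added), every gene sharing or adjoining a member's span, and the most correlated genes; 1 gene that this rule names is not reported here. The tissues of a fetus are paired because they come from the same animal: deviations from the group mean correlated between tissues at r = 0.44, 0.084, 0.091 and 0.56 across 10076 genes in ART-Normal 1 to 4, and at 0.69 in the Control-AI fetuses, whose deviations mirror each other. Numbers in the titles pair no animals between conception groups. Gene lengths in the tables equal whole spans, so levels were not compared between genes. Columns of the authors' own comparisons were not used.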

Additional observations from a re-analysis of the deposited data

How the results depend on the processing

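In liver, 0 genes passed in the conception comparison as reported, with 6 by library size alone, 89 by the likelihood ratio test, 56 by DESeq2, 2 with ART-Normal 1 to 3 and 6 with the replicate block on title numbers, which pair no animals. Leaving out 1 fetus gave 0 to 830 genes, the highest without Control-AI 4. In muscle, 1 passed as reported, with 120 by the likelihood ratio test, 106 by DESeq2, 0 with ART-Normal 1 to 3, 90 with the replicate block and 0 to 1327 with 1 fetus left out, again highest without Control-AI 4. For the interaction, 0 passed as reported, with 98 by the likelihood ratio test, 37 by DESeq2 and 0 to 232 with 1 fetus left out. Of the 9 genes, 0 to 1 passed in liver and 0 to 1 in muscle with 1 fetus left out (NNAT, without Control-AI 4). The tissue comparison stayed within 1.5 times its count of 10507 in every alternative, and the fetus block changed only the PEG10 call among the 9 genes. The cause of these changes was not tested.

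Over the fits of single genes, 300 values kept their direction and side of the threshold, 7 were weaker (PEG10 between tissues), 3 stronger (NNAT in liver and in muscle, SNRPN between tissues) and 28 reversed, all 28 among conception differences that did not pass. In liver, library size alone, which moved the median of all genes to 0.21, gave 0.10 for PEG3, 0.13 for PEG10 and 0.21 for PLAGL1 on the log2 scale. PLAGL1 was 0.020 with no filter and SGCE -0.016 with the replicate block. In muscle PEG3 was -0.012 by library size alone, -0.0039 with ART-Normal 1 to 3 and -0.025 with the block. SGCE in muscle was -0.0014 by RLE size factors, -0.0096 by library size alone, -0.0013 by DESeq2 and -0.018 with the block, and SNRPN was -0.082 with ART-Normal 1 to 3. With 1 fetus left out, the liver values ran from -0.24 to 0.028 for PEG3, -0.31 to 0.16 for PEG10, -0.023 to 0.17 for SGCE and -0.12 to 0.14 for PLAGL1, and the muscle values from -0.090 to 0.12 for PEG3, -0.15 to 0.19 for SGCE, -0.15 to 0.0077 for PLAGL1 and -0.085 to 0.17 for SNRPN. With 2 controls, of which 1 stands apart, small conception differences could not be resolved.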
